A study of Mus musculus with 18 samples.

Results

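Connexins are the proteins of gap junctions, the channels that join the cytoplasm of neighbouring cells. The 6 connexin genes described here were Gja1 (Cx43), Gja4 (Cx37), Gja5 (Cx40), Gjc1 (Cx45), Gjb2 (Cx26) and Gjb5 (Cx31.1), followed through cardiac differentiation of mouse embryonic stem cells. They were found by gene symbol in the annotation of the array, which gave 12 probe sets, and they are 6 of the 18193 genes with a probe set of their own. Of the 6 genes, 5 passed the filter on dim genes, and Gja5 did not.

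Arrays were hybridised with RNA of selected cardiomyocytes, of GFP-positive cells and of GFP-negative cells, 18 arrays in all and 2 in each of 9 groups. Every group came from the D3 stem cell line, differentiated as embryoid bodies in hanging drops, with ascorbic acid and without leukemia inhibitory factor, after removal of the feeder fibroblasts. The selected cardiomyocytes (2 arrays) were taken from a clone with a neomycin resistance gene under the alpha myosin heavy chain promoter, and were enriched by G418. Their day of harvest and batch are not given, so clone, transgene, drug and time cannot be told apart in any comparison with them. GFP-positive and GFP-negative cells were separated by flow cytometry on days 5, 6, 7 and 8 (2 arrays per fraction and day, from batch 1 and batch 2). They carried GFP under an Nkx2.5 enhancer fragment with the Hsp68 minimal promoter, in clones picked by hygromycin resistance, so a GFP-positive cell is one in which this enhancer fragment was active. Nothing in the labels says that the 2 arrays of a group were separate cultures, so p-values here measure only how far these arrays spread, and that spread may be technical.

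Each value is a MAS5 signal, the brightness per probe set on a linear scale, and the deposited arrays share nearly the same trimmed mean. Array medians lay between 18.2 and 29.3, and the median of all values was 22.5. Arrays of one group correlated with each other over probe sets at r between 0.936 and 0.985. Having 2 arrays in a group limits the precision. Differences are given on the scale of log2(signal + 6.8) with the standard error (SE) that limma gave when all arrays were fitted together, and this scale understates the change of dim genes. A difference is called where its p, adjusted over the 13379 genes tested, is under 0.05. Signals of different probe sets are not compared with each other.

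The labelled cell types were checked against their markers. The summed signal of 16 cardiomyocyte markers was 77788.0 and 78174.2 in selected cardiomyocytes. It was 16454.3 to 28054.5 in GFP-positive cells of days 7 and 8, and 3091.7 to 8809.5 in GFP-negative cells of those days. Between these late fractions all 16 markers had a positive difference, with a median of 1.82. Of them 1 was called higher, where 5.12% of all genes were, and 15 did not pass. With batch as a covariate 8 were called higher, where 1000 of the 13379 tested genes were. Nkx2-5, the homeobox gene whose enhancer drives GFP, had 215.5 to 323.2 units in late GFP-positive cells and 75.5 to 105.5 units in late GFP-negative cells. The selected cardiomyocytes also had the highest sums of 10 fibroblast and matrix markers, at 35460.1 and 36566.9, against 11456.0 to 13196.2 in late GFP-positive cells and 9048.9 to 30018.5 in late GFP-negative cells.

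Each connexin passes small molecules and ions at a rate of its own, and the cells of the heart differ in which they use. Gja1 is the main connexin of working heart muscle and is also made by many other cell types. Gjc1 is a connexin of the early heart tube and later of the nodes of the conduction system. Gja5 belongs to atrial muscle, the fast conduction system and arterial endothelium, and Gja4 mainly to endothelium. Gjb2 is a connexin of epithelia such as liver, skin and inner ear, and Gjb5 of epidermis and trophoblast.

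The promoters of the 4 genes called in at least 1 comparison are shown because these genes changed in different samples. Each runs from 250 bases before the start of the gene to 50 after it, 5′ to 3′ on the strand of the gene, from RefSeq on GRCm38.p6. Capitals mark matches to 3 motifs searched on both strands: the NK-2 element TNAAGTG, the T-box element AGGTGT and the GATA element AGATAA.
Gja1, chr10:56377050-56377349, plus strand: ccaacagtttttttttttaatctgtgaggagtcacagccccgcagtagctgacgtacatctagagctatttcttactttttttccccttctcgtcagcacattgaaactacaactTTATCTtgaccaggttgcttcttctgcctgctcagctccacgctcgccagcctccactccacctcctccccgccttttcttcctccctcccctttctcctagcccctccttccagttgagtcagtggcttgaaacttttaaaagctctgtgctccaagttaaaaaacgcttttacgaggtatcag
Gja4, chr4:127313990-127314289, minus strand: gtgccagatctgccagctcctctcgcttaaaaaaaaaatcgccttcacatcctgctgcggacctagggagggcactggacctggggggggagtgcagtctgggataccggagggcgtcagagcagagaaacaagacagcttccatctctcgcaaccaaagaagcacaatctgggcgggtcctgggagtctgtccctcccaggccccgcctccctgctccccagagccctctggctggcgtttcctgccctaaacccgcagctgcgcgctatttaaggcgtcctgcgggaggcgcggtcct
Gjb2, chr14:57104653-57104952, minus strand: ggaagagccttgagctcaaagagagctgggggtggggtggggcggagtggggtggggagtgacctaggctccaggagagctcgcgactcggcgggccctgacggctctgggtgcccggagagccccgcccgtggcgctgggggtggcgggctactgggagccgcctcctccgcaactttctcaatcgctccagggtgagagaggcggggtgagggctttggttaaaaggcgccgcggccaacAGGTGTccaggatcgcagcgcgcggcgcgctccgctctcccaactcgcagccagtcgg
Gjb5, chr4:127358115-127358414, minus strand: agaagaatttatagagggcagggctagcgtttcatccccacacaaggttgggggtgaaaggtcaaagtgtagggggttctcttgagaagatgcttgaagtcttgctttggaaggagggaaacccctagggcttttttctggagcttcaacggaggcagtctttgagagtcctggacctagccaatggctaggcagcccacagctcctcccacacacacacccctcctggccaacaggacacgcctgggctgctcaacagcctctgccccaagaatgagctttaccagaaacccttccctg
The Gja1 window held 1 GATA match, on the opposite strand at position -135 from the start of the gene. The Gjb2 window held 1 T-box element, on the strand of the gene at position -8. Gja4, Gjb5 and Gja5, whose window was also in the table, held no match to the 3 motifs. Over all 32851 promoters of the table, 11.5% held TNAAGTG, 13.7% held AGGTGT and 11.2% held AGATAA. A match in such a window is a description of its letters.

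**Figure D1:**
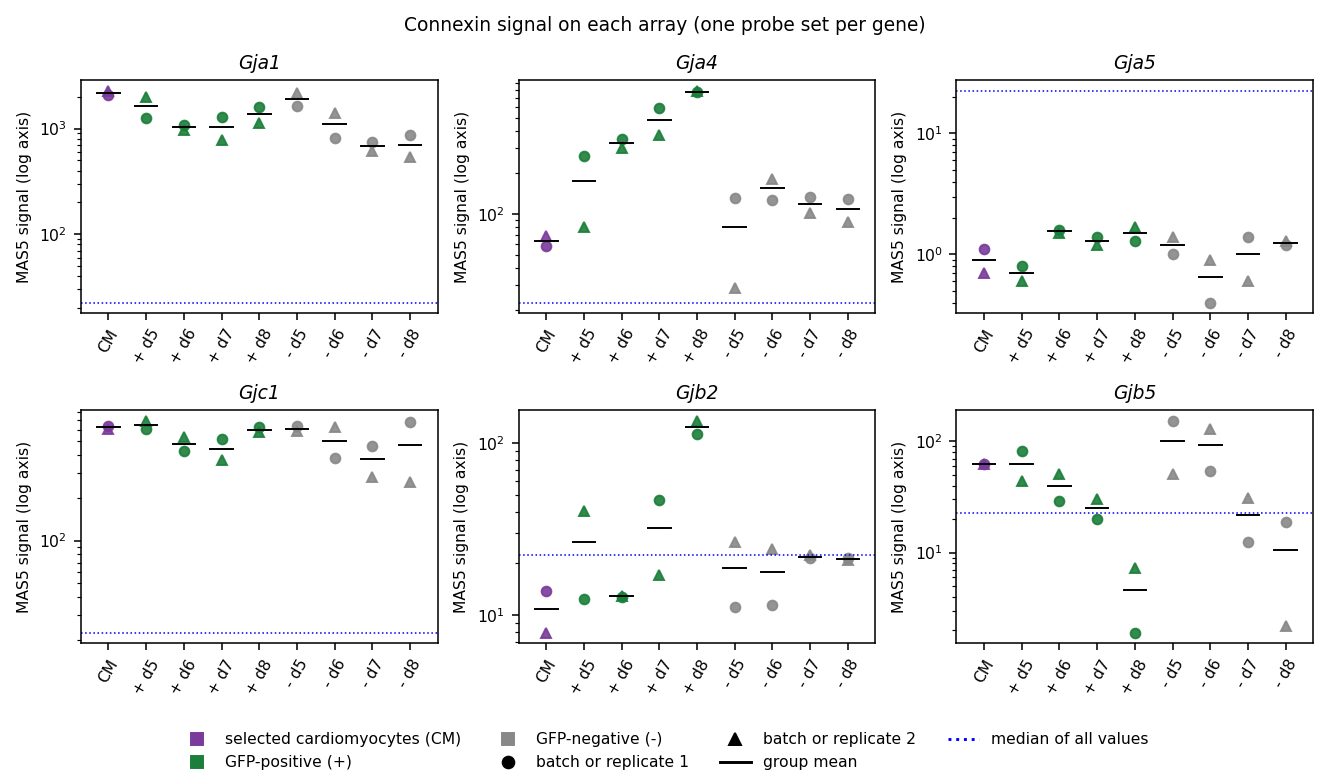
Signal of the 6 connexin genes on each of the 18 arrays (vertical log axis, MAS5 signal; 1 probe set per gene). Columns are selected cardiomyocytes (CM), GFP-positive cells (+) and GFP-negative cells (-) of days 5 to 8, symbols mark batch or replicate, bars are means of 2 arrays and the dotted line is the median of all values, 22.5. Gja4 reaches 768.0 and 788.5 and Gjb2 112.7 and 135.0 in GFP-positive cells of day 8, while Gja5 stays at or under 1.7 on every array.

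Between the fractions, Gja4 and, on the late days, Gjb2 were called, and Gja1 joined them on the late days when pairs of a day and batch were blocked. Over all days 1 of the 5 tested connexins was higher in GFP-positive cells, Gja4, where 2.14% of all tested genes were called higher. On days 7 and 8 it was 2 of 5, Gja4 and Gjb2, where 5.12% of all genes were called higher. On days 5 and 6 limma called 0 of 5, where 0.149% of all genes were called in either direction, and 1 of 5 had an unadjusted p under 0.05, as had 6.7% of all genes. Blocking on pairs of the same day and batch called more genes: 2 of 5 connexins and 11.4% of all genes over all days, 1 of 5 and 1.21% on the early days, and 3 of 5 and 18.9% on the late days.

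With time, the pattern differed by gene in each fraction. In GFP-positive cells of days 7 and 8 against days 5 and 6, Gja4 and Gjb2 rose, where 11.3% of all genes were called higher, and Gjb5 fell, where 8.03% were called lower. In GFP-negative cells Gja1 and Gjb5 fell, where 5.25% of all genes were called lower. The interaction, which asks whether the change with time differed between the fractions, was called for 0 of 5 connexins by limma, where 0.142% of all genes were called. At an unadjusted p under 0.05 it was 3 of 5, against 12.9% of all genes. With the pair block it was called for 2 of 5, Gja1 and Gja4, where 4.66% of all genes were called.

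Against late GFP-positive cells, the selected cardiomyocytes were higher in Gja1 and Gjb5, where 17.9% of all genes were called higher, and lower in Gja4 and Gjb2, where 25.5% were called lower. Against late GFP-negative cells they were higher in the same 2 genes, Gja1 and Gjb5, where 20.3% of all genes were called higher. These comparisons call 43.3% and 46.2% of all genes in either direction, so a call there is common. The split into higher and lower calls over all genes depends on the scaling of the arrays. With time in GFP-positive cells 58.5% of the calls were higher as deposited, 46.1% after quantile normalization and 14.5% with equal array medians. Between the late fractions these shares were 77.2%, 66.0% and 44.0%. With time in GFP-negative cells 58.0% were higher as deposited and 34.9% with equal medians. For selected cardiomyocytes the share was 41.3% as deposited and 70.1% with equal medians against late GFP-positive cells, and 43.9% and 58.1% against late GFP-negative cells. No connexin that was called changed direction under either scaling. Both use the same 2 cardiomyocyte arrays, and several of the comparisons of the sorted cells share arrays as well.

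**Figure D2:**
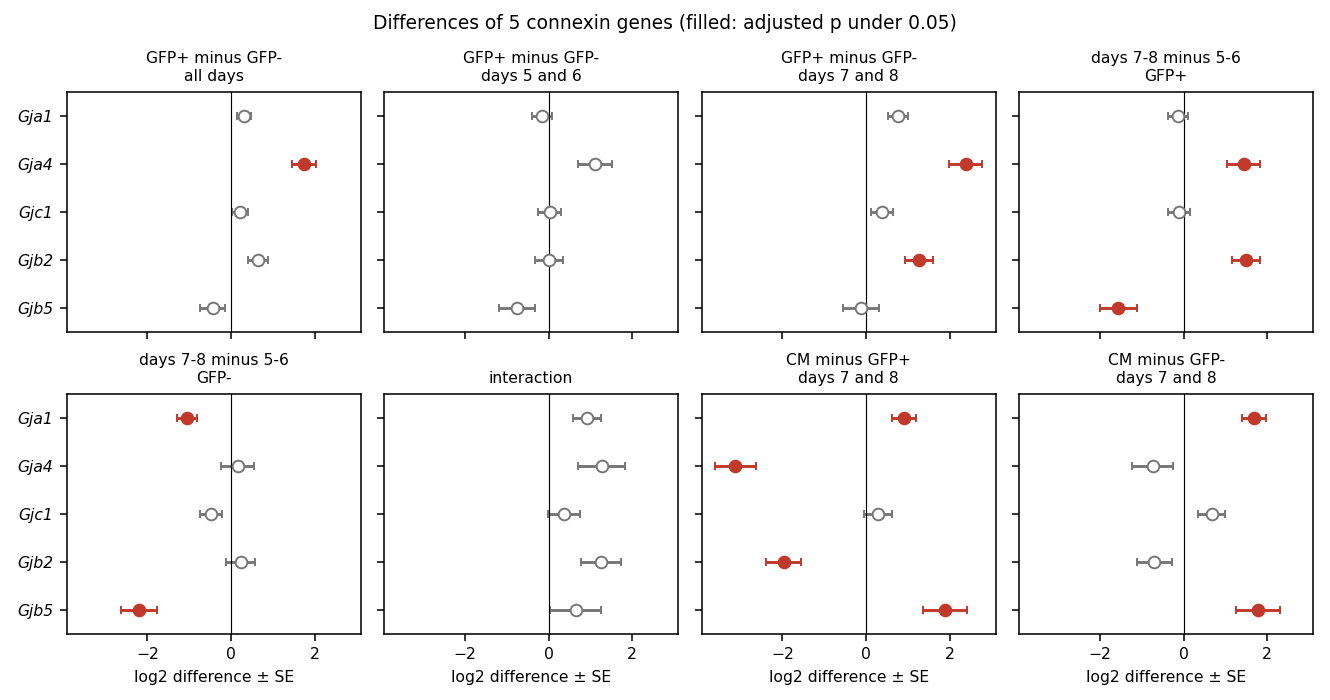
Log2 difference ± SE (horizontal axis) of the 5 tested connexin genes in the 8 comparisons, from limma over 13379 genes. Filled red points have an adjusted p under 0.05: Gja4 in the fractions over all days and late, Gjb2 late, 3 genes with time in GFP-positive cells, 2 in GFP-negative cells, and 4 and 2 genes for the cardiomyocytes (CM); the early fractions and the interaction have none.

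Gja1, the connexin of working heart muscle, was bright on every array. It had 2096.2 and 2273.5 units in selected cardiomyocytes. In GFP-positive cells, batch 1 then batch 2, it had 1261.1 and 1980.7 on day 5, 1086.8 and 961.5 on day 6, 1286.2 and 784.2 on day 7, and 1610.4 and 1121.0 on day 8. In GFP-negative cells it had 1647.6 and 2153.8 on day 5, 810.7 and 1405.7 on day 6, 751.1 and 610.8 on day 7, and 875.1 and 535.0 on day 8. The highest sorted array was thus in GFP-negative cells of day 5, and the lowest were in GFP-negative cells of days 7 and 8. Ranked by mean log2 signal, the 9 groups ran from selected cardiomyocytes to GFP-negative cells of day 7, and each group overlapped its neighbour in that order.

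In GFP-negative cells Gja1 fell by 1.05 ± 0.23 on the log2 scale from the early to the late days (adjusted p = 0.0153; 4 arrays each), with -0.51 in batch 1 and -1.59 in batch 2. Late arrays reached 875.1 and the lowest early array was at 810.7, so the groups overlapped by 1 array on each side. With single arrays left out the change ranged from -1.25 to -0.85, and it missed the threshold in 3 of 8 fits: without batch 2 of day 5 (adjusted p = 0.0637), of day 6 (0.0803) or of day 8 (0.0529). In GFP-positive cells the change was -0.13 ± 0.23 (adjusted p = 0.739), with 0.30 in batch 1 and -0.55 in batch 2. Setting the arrays to equal medians made it -0.56 with an adjusted p of 0.0350. Between the fractions on days 7 and 8, Gja1 differed by 0.77 ± 0.23 with an adjusted p of 0.0683, and of 0.00446 with a block for pairs of the same day and batch. All 4 late pairs were higher in GFP-positive cells, by 0.36 to 1.06, while 3 of the 4 early pairs were lower. The interaction was 0.92 ± 0.33 (adjusted p = 0.259, and 0.0297 with the pair block).

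Selected cardiomyocytes exceeded late GFP-negative cells in Gja1 by 1.67 ± 0.29 on the log2 scale, which is 3.18-fold (adjusted p = 0.000452). Both cardiomyocyte arrays lay above all 4 late GFP-negative arrays, as 27.7% of all genes did. Against late GFP-positive cells the difference was 0.91 ± 0.29, or 1.87-fold (adjusted p = 0.0216), again without overlap, as in 27% of genes. This call was lost in 4 of 6 fits that left out 1 array (adjusted p up to 0.126), each cardiomyocyte array included, and with day 8 alone as the reference, where the difference was 0.70 (adjusted p = 0.121). The sums of cardiomyocyte, fibroblast and smooth muscle markers were all higher in selected cardiomyocytes, and their part in the Gja1 difference was not tested.

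Gja1 had 6 probe sets, and 5 of them gave the same picture. In late against early GFP-negative cells 5 of 6 were negative and 3 were called, from -1.35 to 0.18. Selected cardiomyocytes against late GFP-negative cells gave 5 of 6 positive, all 5 called, from -0.03 to 1.74. The same set went the other way both times, and it had 47.3 to 148.5 units over the 18 arrays. Against late GFP-positive cells, 6 of 6 sets were higher in selected cardiomyocytes but 2 were called, from 0.12 to 1.29. Between the late fractions 5 of 6 sets were higher in GFP-positive cells, from -0.15 to 1.06. There 1 set was called, and it was not the set used for the fits.

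**Figure D3:**
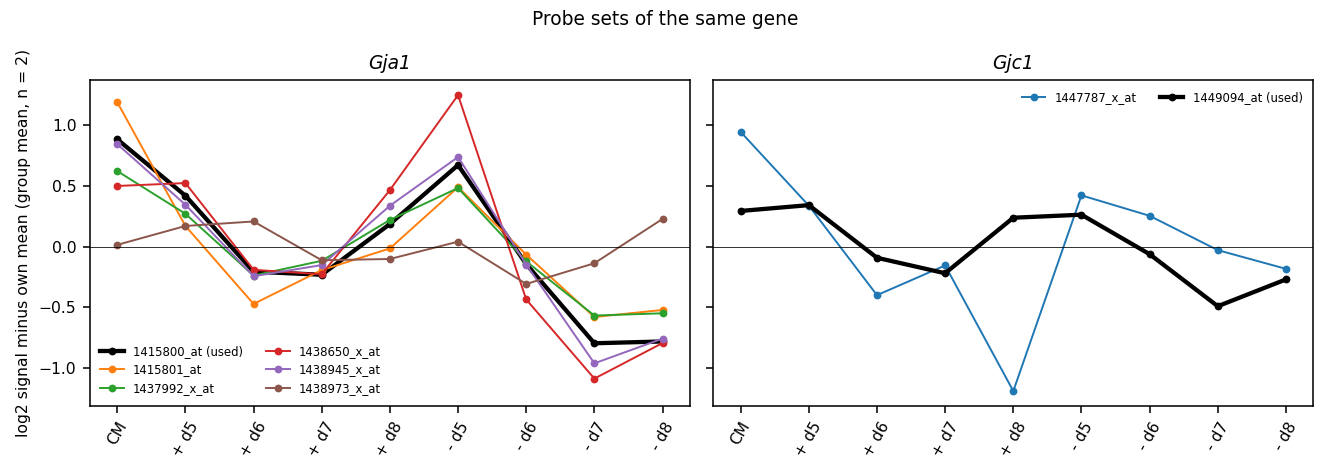
Log2 signal of each probe set of Gja1 (left, 6 sets) and Gjc1 (right, 2 sets) minus its own mean over the 18 arrays (vertical axis), averaged over the 2 arrays of each group; thick black lines are the sets used for the fits. Columns are selected cardiomyocytes (CM), then GFP-positive (+) and GFP-negative (-) cells by day. Of the 6 Gja1 sets 5 follow each other, and the 2 Gjc1 sets part in GFP-positive cells of day 8.

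Gjc1, the connexin of the early heart tube, was not called in any of the 8 comparisons by the probe set used. Its signal was 644.7 and 609.8 in selected cardiomyocytes. GFP-positive cells had 605.8 and 694.0 on day 5, 426.8 and 536.3 on day 6, 515.7 and 371.0 on day 7, and 625.7 and 581.1 on day 8. GFP-negative cells had 635.8 and 592.2 on day 5, 378.2 and 630.4 on day 6, 462.8 and 281.8 on day 7, and 685.5 and 258.9 on day 8. Each group overlapped its neighbour when the 9 groups were ranked by mean log2 signal, and the widest gap between 2 arrays of a group was in GFP-negative cells of day 8.

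Selected cardiomyocytes differed in Gjc1 by 0.67 ± 0.33 from late GFP-negative cells (adjusted p = 0.109) and by 0.28 ± 0.33 from late GFP-positive cells (adjusted p = 0.515). Without batch 1 of the day 8 GFP-negative cells, the array with 685.5 units, the first of these became 1.02 with an adjusted p of 0.00576. The fractions differed by 0.39 ± 0.27 on the late days (adjusted p = 0.400), with 0.01 in batch 1 and 0.77 in batch 2. The second probe set of the gene disagreed in sign with the first between the fractions: it gave -0.57 and the first 0.39 on the late days. It had 309.5 and 83.9 units in GFP-positive cells of day 8, its lowest array, where the first set had 625.7 and 581.1. When every probe set was tested, the second set was called higher in selected cardiomyocytes than in late GFP-positive cells, by 1.62 ± 0.57 (adjusted p = 0.0353), where the first gave 0.28. Gjc1 and Gja1 correlated with r = 0.81 over the 16 sorted arrays, which share batches and days.

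Gja4, a connexin of endothelium, differed most between the fractions among the 5 tested connexins. GFP-positive cells, batch 1 then batch 2, had 265.5 and 80.4 units on day 5, 352.5 and 301.5 on day 6, 592.8 and 376.5 on day 7, and 768.0 and 788.5 on day 8. The signal was 131.1 and 28.8 in GFP-negative cells on day 5, 126.1 and 179.8 on day 6, 133.0 and 101.6 on day 7, and 127.3 and 87.7 on day 8. Selected cardiomyocytes had 58.6 and 68.8. The GFP-positive groups of days 6, 7 and 8 did not overlap each other or any other group, and each later day was higher. Each of these groups has 2 arrays, and the share of all genes with such an order was not counted.

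Over all days Gja4 was higher in GFP-positive cells by 1.74 ± 0.28 on the log2 scale, or 3.35-fold (8 arrays each; adjusted p = 0.00719), with 1.76 in batch 1 and 1.73 in batch 2. Each of the 8 pairs of a day and batch had more Gja4 signal in GFP-positive cells, a pattern that 3.45% of all genes shared. The ratio of the signals in those pairs ran from 1.68, on day 6 in batch 2, to 8.99, on day 8 in batch 2. On days 7 and 8 the difference was 2.38 ± 0.40, or 5.21-fold (adjusted p = 0.00586), and all 4 GFP-positive arrays lay above all 4 GFP-negative ones, as in 7.96% of genes. On days 5 and 6 it was 1.11 ± 0.40 (adjusted p = 0.540, and 0.00788 with the pair block). Leaving out single arrays kept the calls over all days and on the late days, with differences of 1.50 to 1.99 and 2.22 to 2.54. Batch 2 alone, with 1 array per fraction and day, lost both calls at a difference of 1.73 and 2.45. Batch 1 alone, with as many sorted arrays, kept both at 1.76 and 2.32. The cause was not tested.

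With time Gja4 rose in GFP-positive cells by 1.44 ± 0.40 (2.71-fold; adjusted p = 0.0261), with 1.12 in batch 1 and 1.75 in batch 2. Day 8 against day 5 alone gave 2.35 (adjusted p = 0.0147). The call of the late against the early days was lost with equal array medians (1.02; adjusted p = 0.0766) and in 5 of 8 fits without 1 array, where the adjusted p reached 0.117. In GFP-negative cells the change was 0.16 ± 0.40 (adjusted p = 0.827). The interaction was 1.27 ± 0.56 (adjusted p = 0.360, and 0.0163 with the pair block).

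Selected cardiomyocytes were 8.72-fold lower than late GFP-positive cells in Gja4, at -3.13 ± 0.49 on the log2 scale (adjusted p = 0.000253). The call held in all 6 fits without 1 array. They also lay below all 4 late GFP-negative arrays, as 33.8% of all genes did, but that difference of -0.74 ± 0.49 did not pass (adjusted p = 0.234). Beside these values, the summed signal of 16 endothelial markers was 724.0 and 753.7 in selected cardiomyocytes, 6770.0 to 12395.5 in late GFP-positive cells and 1950.9 to 3129.6 in late GFP-negative cells, and their part in the result was not tested. Pecam1, Tie1, Erg, Plvap and Cldn5 of that list, picked after their values were seen, were under 22.5 units on both cardiomyocyte arrays. In selected cardiomyocytes 9 of the 16 were called lower than in late GFP-negative cells, where 25.9% of all genes were. Of the rest 1 was higher, where 20.3% of all genes were, and 6 did not pass. In such bulk samples fewer cells of a type and less RNA per cell cannot be told apart.

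**Figure D4:**
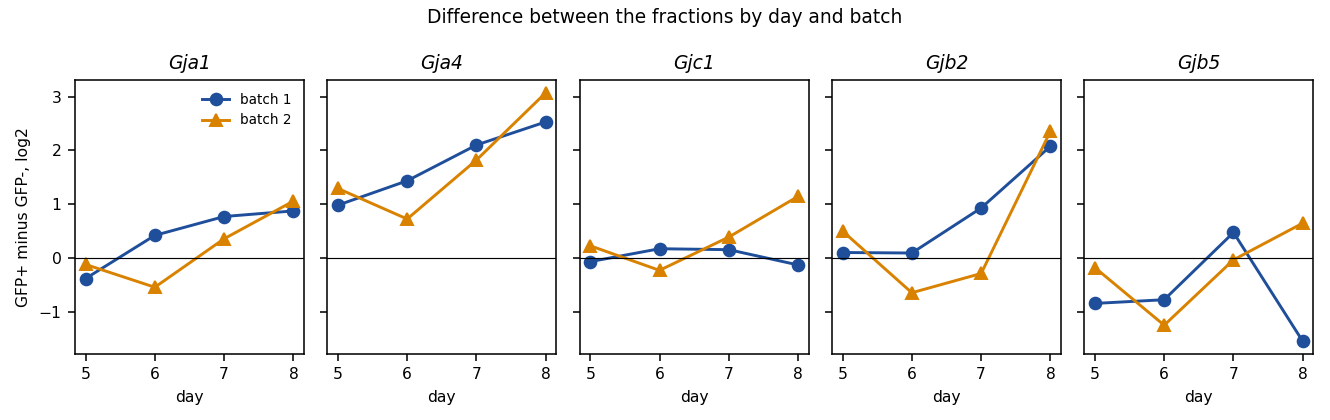
Difference between GFP-positive and GFP-negative cells (vertical axis, log2 scale) in each pair of the same day and batch, against the day of differentiation; circles and triangles are batches 1 and 2. Gja4 lies above 0 in 8 of 8 pairs and reaches 2.53 and 3.07 on day 8, Gjb2 reaches 2.08 and 2.36 on that day, and the pairs of Gjb5 lie on both sides of 0.

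Gja5, the connexin of atrial muscle and arteries, was not detected above the dim end of the scale. Its single probe set gave 0.7 and 1.1 units in selected cardiomyocytes, 0.6 to 1.7 in GFP-positive cells and 0.4 to 1.4 in GFP-negative cells. All 18 arrays were far under the median of all values, and the gene was not tested. A dim probe set gives no order of levels, and these values do not show that the gene is silent. Without the filter on dim genes its adjusted p was 0.717 or more in every comparison.

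Gjb2, the epithelial connexin, was dim in most groups and stood out in GFP-positive cells of day 8. It had 13.8 and 7.9 units in selected cardiomyocytes. GFP-positive cells had 12.4 and 40.6 on day 5, 12.7 and 13.0 on day 6, 46.9 and 17.1 on day 7, and 112.7 and 135.0 on day 8. GFP-negative cells stayed between 11.1 and 26.7 on all days, with 21.5 and 20.9 on day 8. Only 6 of the 18 arrays reached 22.5 units, and the 2 day 8 GFP-positive arrays lay above all others. How many of all genes share that was not counted.

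Between the late fractions Gjb2 was higher in GFP-positive cells by 1.27 ± 0.34 on the log2 scale, or 2.41-fold (adjusted p = 0.0447), with 1.50 in batch 1 and 1.03 in batch 2. The day 7 pair of batch 2 went the other way, at -0.29, so the groups overlapped. Day 8 alone gave 2.22 (adjusted p = 0.0346), with signal ratios of 5.24 and 6.46. This call was close to the threshold: it was lost with an offset of 1 (adjusted p = 0.0782), equal medians (0.0527), no filter (0.0587), the sorted arrays alone (0.0623) and either batch alone (0.0801 and 0.604). Leaving out single arrays lost it in 7 of 8 fits, all but that without batch 2 of the day 7 GFP-positive cells, with differences of 0.98 to 1.56. Over all days the difference was 0.64 ± 0.24 (adjusted p = 0.177, and 0.0488 with the pair block).

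Gjb2 rose with time in GFP-positive cells by 1.49 ± 0.34 (2.80-fold; adjusted p = 0.0128), with 2.05 in batch 1 and 0.93 in batch 2. Without batch 2 of day 6 or batch 1 of day 7 the adjusted p was 0.0529 and 0.0733, and in batch 2 alone it was 0.540. GFP-negative cells changed by 0.23 ± 0.34, which did not pass (adjusted p = 0.705). Selected cardiomyocytes were 3.92-fold lower than late GFP-positive cells, at -1.97 ± 0.42 on the log2 scale (adjusted p = 0.00218), and both lay below all 4 of those arrays, as 34.8% of all genes did. The call held in all 6 fits without 1 array. Against late GFP-negative cells the difference was -0.70 ± 0.42 (adjusted p = 0.191).

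The summed signal of 13 endoderm markers was 1065.4 and 1184.1 in selected cardiomyocytes, 8095.9 to 22578.4 in late GFP-positive cells and 2298.5 to 5237.4 in late GFP-negative cells. That of 17 markers of epithelium, surface ectoderm and trophoblast was 2986.7 and 3011.8 in selected cardiomyocytes, 6592.6 to 15392.7 in late GFP-positive cells and 3769.4 to 6930.1 in late GFP-negative cells. On days 5 and 6 the epithelial sum was 5914.9 to 8056.3 in GFP-positive cells and 7622.5 to 12471.6 in GFP-negative cells. These ranges overlapped. Gjb2, which was dim on most arrays of those days, differed between the fractions by 0.01 ± 0.34. The part of either list in the Gjb2 result was not tested. On both cardiomyocyte arrays 8 of the 13 endoderm markers were under 22.5 units, Apoa1, Apob, Ttr and Hnf4a among them, and 11 of the 17 epithelial ones, with Cdh1 and Cldn6, while the others reached that level on at least 1 array.

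Gjb5, the connexin of epidermis and trophoblast, fell with time in both fractions and was higher in selected cardiomyocytes than in late cells of either fraction. It had 62.2 and 62.7 units in selected cardiomyocytes. In GFP-positive cells it had 81.8 and 43.9 on day 5, 28.8 and 50.6 on day 6, 20.0 and 30.3 on day 7, and 1.9 and 7.3 on day 8. In GFP-negative cells it had 152.4 and 50.6 on day 5, 54.2 and 129.8 on day 6, 12.5 and 31.2 on day 7, and 18.7 and 2.2 on day 8. Each fraction was lowest on day 8, and 12 of the 18 arrays reached 22.5 units.

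In GFP-negative cells Gjb5 fell by 2.21 ± 0.43 on the log2 scale between the early and the late days (adjusted p = 0.00963), with -2.15 in batch 1 and -2.26 in batch 2. All 4 late arrays lay below all 4 early ones, as in 6.2% of genes. The call was lost in 1 of 8 fits, without batch 2 of day 6 (-1.91; adjusted p = 0.0544). In GFP-positive cells it fell by 1.56 ± 0.43 (adjusted p = 0.0265), with -1.88 in batch 1 and -1.24 in batch 2. There the call was lost in 5 of 8 fits without 1 array (adjusted p up to 0.110), and an offset at the median of all values made the change -0.998 (adjusted p = 0.0372). The 2 changes were not shown to differ: the interaction was 0.65 ± 0.61 (adjusted p = 0.692). Between the fractions Gjb5 differed by -0.44 ± 0.31 over all days (adjusted p = 0.477), being lower in GFP-positive cells in 6 of 8 pairs.

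Selected cardiomyocytes were higher in Gjb5 than late GFP-positive cells by 1.89 ± 0.53, or 3.71-fold (adjusted p = 0.0114), and than late GFP-negative cells by 1.77 ± 0.53, or 3.42-fold (adjusted p = 0.0149). Neither set of 4 late arrays overlapped the 2 cardiomyocyte arrays, which lay above, as in 27% and 27.7% of all genes. Without either cardiomyocyte array the adjusted p was 0.0680 and 0.0702 in the first comparison, and 0.0789 and 0.0807 in the second. Their 62.2 and 62.7 units lie within the range of the GFP-positive and GFP-negative arrays of days 5 and 6. Of the 17 epithelial and trophoblast markers, 11 were under 22.5 units on both cardiomyocyte arrays, Trp63 among them. Krt5, Krt14, Elf5 and Esx1 were also among these, but they did not pass the filter over all 18 arrays. Their low signal is thus not particular to the cardiomyocytes.

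Of 17 other connexin and pannexin genes listed, 11 had a probe set of their own and 2 were tested. Gja3, a connexin of the lens, had 108.4 and 102.9 units in selected cardiomyocytes and at most 16.7 on any sorted array. It passed the filter through the 2 cardiomyocyte arrays alone, so its levels are given without a fold or a test. Its second probe set had 34.1 and 31.6 units in selected cardiomyocytes and at most 12.4 on any sorted array. RefSeq places Gja3 beside Gjb2 on chromosome 14, and Gjb2 was lower in selected cardiomyocytes than in late GFP-positive cells. Panx1, a pannexin, ran from 86.4 to 242.9 units over the 18 arrays and passed in no comparison. The other 9 genes were below the filter: Gja10, Gjb1, Gjb6, Gjc3, Gjd2, Gjd4, Gje1, Panx2 and Panx3.

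Genes of the intercalated disc, the junction that holds gap junctions between heart muscle cells, included adhesion genes with higher levels in selected cardiomyocytes. Of 17 tested, 10 were higher than in late GFP-positive cells, where 17.9% of all genes were, and 7 did not pass, with a list median of 0.66, against -0.13 over all genes. Ldb3, a Z-disc protein, was higher by 3.08 ± 0.98, Xirp1, an actin-binding protein of the disc, by 2.90 ± 0.54, Cdh2, the cadherin of heart muscle, by 2.35 ± 0.55, and Vcl, which links adhesions to actin, by 1.52 ± 0.17. Against late GFP-negative cells 12 were higher, where 20.3% of all genes were, 1 was lower and 4 did not pass. Between the late fractions 2 of 17 were higher in GFP-positive cells, where 5.12% of all genes were: Cxadr, an adhesion receptor of the disc, by 1.28 ± 0.26, and Tjp1, a scaffold that binds Gja1 protein, by 0.82 ± 0.12. In GFP-negative cells 2 of the 17 fell with time, where 5.25% of all genes did: Cxadr, by 0.95 ± 0.26, and Tjp1, by 0.50 ± 0.12. Vcl rose by 0.75 ± 0.14, as 1 of 17, where 7.25% of all genes rose. The other 14 did not pass.

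**Figure D5:**
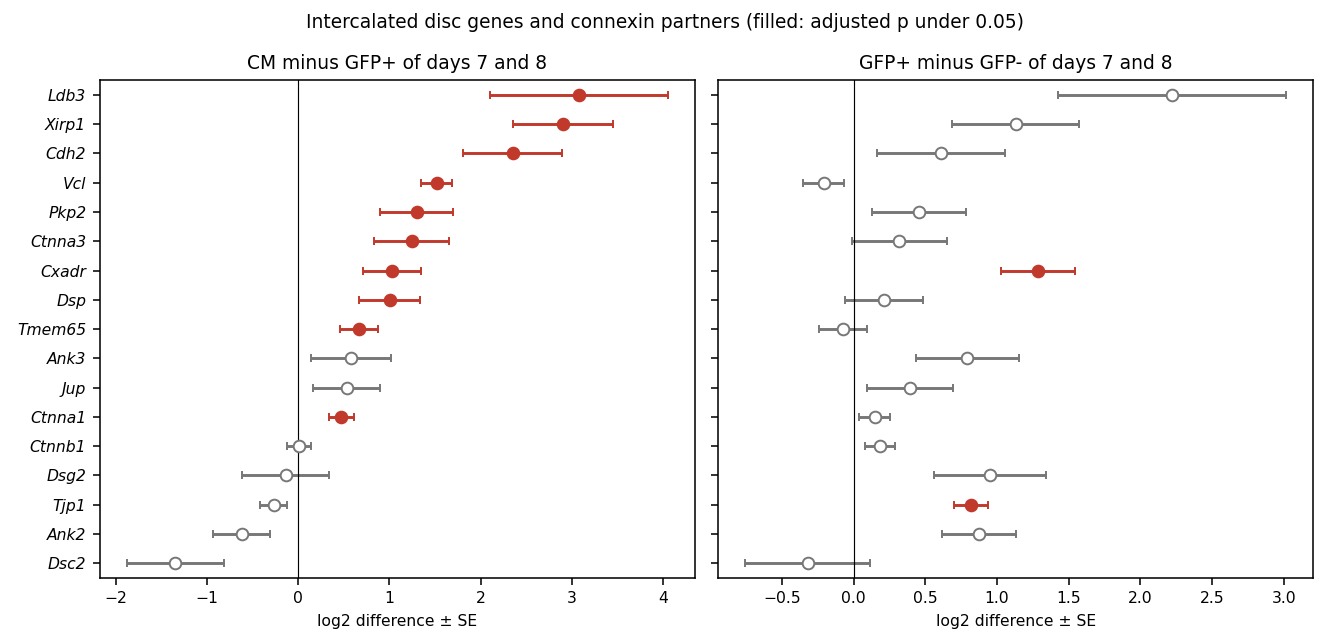
Log2 difference ± SE (horizontal axes, with different scales) of 17 genes of the intercalated disc and partners of connexins, ordered by the left panel. Left: selected cardiomyocytes minus late GFP-positive cells, with 10 genes filled (adjusted p under 0.05, limma), from Ldb3 at 3.08 downward; right: late GFP-positive minus late GFP-negative cells, with Cxadr and Tjp1 filled.

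Among 19 listed regulators of cardiac and vascular connexin genes, 6 were higher in late GFP-positive than in late GFP-negative cells, where 5.12% of all genes were, and 13 did not pass. Sox17 was higher by 2.69 ± 0.46, Sox18 by 2.40 ± 0.43, Notch1 by 2.14 ± 0.24 and Nkx2-5 by 1.60 ± 0.36. Sox17, Sox18 and Notch1 are known from endothelium, and Sox17 is also in the list of endoderm markers. Against late GFP-positive cells the selected cardiomyocytes were higher in 4 of 19 and lower in 4 of 19, near the 17.9% and 25.5% of all genes. Tbx18, a T-box factor of the venous pole of the heart, was higher by 4.68 ± 0.39, while Sox18 was lower, at -5.55 ± 0.52, as were Klf2, at -3.13 ± 0.64, and Sox17, at -2.82 ± 0.56. Hopx, a cardiac cofactor, was higher in selected cardiomyocytes than in late GFP-negative cells by 3.67 ± 0.39 (adjusted p = 1.29e-05).

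The lists of cell type markers are given beside the shares over all genes. Between the late fractions 5.12% of all genes were called higher, with time 11.3% rose in GFP-positive and 5.25% fell in GFP-negative cells, and selected cardiomyocytes were higher than late GFP-positive cells in 17.9% and lower in 25.5%. Of 16 endothelial genes, 11 were higher in late GFP-positive than in late GFP-negative cells and 5 did not pass, with a median of 1.94. With batch as a covariate all 16 were called higher there, where 1000 of the 13379 tested genes were. In selected cardiomyocytes 15 of the 16 were lower than in late GFP-positive cells, with a median of -3.70. Arterial genes followed with 4 of 9 higher between the late fractions, led by Sema3g at 2.36 ± 0.42. In selected cardiomyocytes 6 of the 9 were lower than in late GFP-positive cells, 2 were higher and 1 did not pass. Endoderm genes were higher in late GFP-positive cells for 9 of 12 and epithelial genes for 4 of 13, among them Apob, an apolipoprotein, by 3.56 ± 0.67, and Cldn6, a claudin of early epithelia, by 2.34 ± 0.50. With time in GFP-positive cells 9 of 12 endoderm and 6 of 13 epithelial genes rose, while in GFP-negative cells 3 of 13 epithelial genes fell. Smooth muscle genes were higher in selected cardiomyocytes than in late GFP-positive cells for 6 of 10, fibroblast genes for 5 of 10 and cardiomyocyte genes for 7 of 16, and blood genes were lower for 7 of 7. Of 12 pluripotency genes 3 were lower there, near the share over all genes, and of 6 neuroectoderm genes 3 were higher and 2 lower. Of 3 housekeeping genes 1 was lower.

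Over the 16 sorted arrays, the tested genes whose log2 signal followed each connexin most closely were listed by Pearson's r, as a description over arrays that share days and batches. For Gja4 they were Ecscr (r = 0.970; 0.893 over all 18 arrays), Calcrl (0.970; 0.972), Gask1b (0.969; 0.323), Ppp1r16b (0.965; 0.964) and Adgrf5 (0.962; 0.902). For Gja1 they were Enah (0.955; 0.965), Tmeff1 (0.952; 0.545), Vps36 (0.949; 0.679), Vangl2 (0.936; 0.239) and Car14 (0.932; 0.142). With the cardiomyocytes added, r was lower for the other 4 and higher for Enah. For Gjb2 the first was Serpina1c (0.919; 0.897), followed by Rora, Sh2d4a, Prkg2 and Robo4. Gjc1 was followed most closely by Chic1 (0.941; 0.898), Fut11, Tspan3, Kif3a and Plekhg2, and Gjb5 by Cracd (0.917; 0.801), Rgs5, Phax, Nek3 and Ms4a4d. Among the connexins themselves, Gja4 and Gjb2 had r = 0.47 and Gjb2 and Gjb5 had r = -0.60.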

How the data were processed

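RNA from 18 samples had been amplified in 2 rounds with a T7 oligo dT primer, per the labels' protocols. The deposited values are MAS5 signal intensities on a linear scale, which the authors made with GCOS 1.4 and MAS5, per the submitters' processing notes. No detection calls or scanner files were used here. Groups and batches came from the sample titles.

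Left out were 64 control probe sets, 9160 without a gene symbol and 932 with several. Each of 18193 genes was represented by its probe set of highest mean signal, with sets of type x used only where no other existed. A gene was tested where 2 or more arrays reached 22.5 units, the median of all values, which left 13379. The offset of 6.8 in log2(signal + 6.8) is their lower quartile. All 9 group means were estimated in one model (limma 3.58.1, R 4.3.3) with a variance trend (9 residual degrees of freedom), and p-values were adjusted by Benjamini-Hochberg over all tested genes. The fit was tested on simulated data, with 100 changed genes of each size. A log2 difference of 1 was called in 54% to 80% of them in the other comparisons of sorted cells, but in 26% for the interaction. For selected cardiomyocytes it was 41% and 43%. At a difference of 2 the interaction was called in 78%. Most interactions of size 1 were thus missed.

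The connexin genes and the 14 gene lists were chosen with earlier results of these data known. Genes were named by rule: the 6 connexins, the 5 genes most correlated with each, and up to 4 members of a list past the threshold, or else the 2 of lowest p; the text names part of these. Genes listed as below a signal of 22.5 units in the cardiomyocytes were chosen after their values were seen.

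The batch number, given in the titles, pairs GFP-positive with GFP-negative cells, and links the days. Batch differences over genes correlated between the fractions with r = 0.65 on day 5, 0.40 on day 6, 0.34 on day 7 and -0.05 on day 8. Adding batch as a covariate left 8 residual degrees of freedom, and blocking on day-and-batch pairs left 5. Alternatives changed the offset, the scaling, the filter, the probe sets, the variance trend, array weights, the block, the days and the arrays included. Leaving out an array leaves its group with 1, whose spread is then taken to equal that of the other groups. Promoters came from RefSeq on GRCm38.p6. Figures were drawn in Python 3.11.15 (matplotlib 3.10.9).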

Additional observations from a re-analysis of the deposited data

Results flagged for a closer look

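In 25 groups of 4 to 10 values, 3 held 1 value far from the rest (Dixon's criterion at the 95% level), where chance gives about 1 in 20. The Gjc1 difference between GFP-positive and GFP-negative cells was 1.15 in the day 8 pair of batch 2, above the other 7 pairs. Gjc1 had 378.2 units in GFP-negative cells of day 6, batch 1, below the other 3 early GFP-negative arrays. Gjb2 had 40.6 units in GFP-positive cells of day 5, batch 2, above the other 3 early GFP-positive arrays.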

How the results depend on the processing

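Of 585 values of single connexins under settings other than leaving out an array, 549 kept their direction and side of the threshold, 18 lost a call, 9 gained one and 9 changed sign, and none of those that changed sign was called. Of 380 values with 1 array left out, 326 kept both, 31 lost a call, 5 gained one and 18 changed sign. The number of connexins called between the fractions over all days was 1 as reported, 2 with the replicate block on pairs of the same day and batch and 0 in batch 2 alone. On days 5 and 6 it was 1 in place of 0 with the pair block. On the late days Gjb2 lost its call with an offset of 1, equal medians, no filter, the sorted arrays alone or either batch alone. Gja4 lost its call in batch 2 alone. Gja1, not called as reported, stayed so in 14 of 16 settings. The number of connexins called stayed at 2 in 10 of 16 settings, and it was 3 with the pair block, which added Gja1. With time it was 0 in batch 2 alone in place of 3 in GFP-positive cells, and 0 in either batch alone in place of 2 in GFP-negative cells. For the interaction the pair block gave 2 in place of 0. Batch as a covariate (replicate block) changed no call of a connexin. With single arrays left out, the counts ranged from 1 to 3 on days 7 and 8, from 0 to 3 with time in GFP-positive cells and 0 to 3 in GFP-negative cells, and for selected cardiomyocytes from 2 to 4 against late GFP-positive and 1 to 3 against late GFP-negative cells. The values that changed sign in one batch alone were, between the early fractions, Gja1 in batch 1 (0.018), Gjc1 in batch 2 (-0.0020) and Gjb2 in batch 2 (-0.073); between the late fractions, Gjb5 in batch 2 (0.31); with time in GFP-positive cells, Gja1 (0.30) and Gjc1 (0.16) in batch 1; with time in GFP-negative cells, Gjc1 in batch 1 (0.20) and Gjb2 in batch 2 (-0.18); and the interaction of Gjc1 in batch 1 (-0.039). With 1 array left out, sign changes lay in ranges of -0.35 to 0.040 for Gja1, -0.16 to 0.21 for Gjc1 and -0.31 to 0.34 for Gjb2 between the early fractions, -0.49 to 0.26 for Gjb5 between the late ones, -0.31 to 0.048 for Gja1 and -0.23 to 0.0015 for Gjc1 with time in GFP-positive cells, and -0.32 to 0.65 for Gja4 with time in GFP-negative cells. The causes were not tested. Equal array medians moved the median of all genes to -0.29 from 0.09 with time in GFP-positive cells, to -0.19 from 0.01 between the late fractions, to -0.24 from 0.04 in the interaction, to -0.12 from -0.01 with time in GFP-negative cells and to 0.25 from -0.13 for selected cardiomyocytes against late GFP-positive cells. No connexin changed sign under either scaling. Over all genes, the number called ranged from 0 to 1528 around 358 between the fractions over all days, from 0 to 162 around 20 early and from 1 to 2524 around 887 late, with the lowest in batch 2 alone and the highest under the pair block. With time it ranged from 62 to 4583 around 2590 in GFP-positive cells and from 99 to 2436 around 1673 in GFP-negative cells, for the interaction from 0 to 623 around 19, and for selected cardiomyocytes from 3722 to 10112 around 5798 and from 4192 to 10575 around 6176. Signals near or under 22.5 units, as for Gjb2 in most groups, Gjb5 on day 8 and Gja5, limit what these arrays can show.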
